A study of Mus musculus with 40 samples.

Results

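The collagen gene family was examined in mouse liver after repeated exposure to TCDD, a persistent dioxin that activates the aryl hydrocarbon receptor (AhR). Members were all genes whose symbol reads Col, a type number, a and a chain number, and 44 of the 55359 genes in the count tables met this rule. They were grouped into 11 fibrillar genes, 6 basement membrane genes (Col4a1 to Col4a6) and 27 genes of other types. The basement membrane class thus held type IV genes only. Col15a1 and Col18a1, whose chains belong to the basement membrane zone, were counted among the other types. Male C57BL/6 mice received sesame oil vehicle or TCDD at 30, 10, 3, 1, 0.3, 0.1 or 0.03 μg/kg by oral gavage every 4 days for 28 days, 7 administrations in all. Ages per the labels ran from 30 to 58 days, and each of the 8 groups held 5 mice and so 5 libraries of total liver RNA. No allele, transgene or second agent differed between groups.

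Collagens are assembled from α chains that wind into a triple helix, and each Col gene encodes 1 chain. Fibrillar collagens form the tensile fibrils of scar and connective tissue, type IV collagen forms the sheet of basement membranes, and the remaining types bind to fibrils, form beaded filaments or short networks, span the cell membrane or carry endostatin-like ends. In liver, stellate cells and portal fibroblasts are known producers of fibrillar collagen in fibrosis, endothelial cells and bile duct cells lie on or near basement membrane proteins, and hepatocytes are a known source of collagen XVIII.

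Libraries held 15.5 M to 21.0 M counts in genes, with a median of 17.5 M. The 6 hepatocyte markers examined were abundant in vehicle livers, with a summed level of 96748 to 118583 CPM (counts scaled to a library of common size, with libraries scaled by TMM, the trimmed mean of log ratios between libraries). At 30 μg/kg, replicate 1 stood apart from the other 4 mice of its group. In vehicle, replicate 2 had the highest level of 13 of the 18 collagen genes that rose at 30 μg/kg. Where leaving out either library ended the call of a collagen gene at 30 μg/kg or moved its value by over 1.5 times, the value without it is given beside the result. RNA came from whole liver, in which a change in the number of cells of a type and a change in RNA per cell cannot be told apart.

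Of the 44 members, 31 had enough counts to be tested, namely 9 fibrillar, 5 basement membrane and 17 other genes. The highest count in any library was 1 for Col19a1, 3 for Col2a1, Col9a1, Col26a1 and Col6a4, 6 for Col10a1 and Col17a1, and 7 for Col22a1. It was 12 for Col25a1, 14 for Col4a6, 15 for Col9a3 and Col28a1, and 21 for Col11a1. These 13 genes were not tested. Col2a1, Col9a1 and Col10a1 encode chains of cartilage collagens.

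The sequences around the start sites of 3 members are shown because Col9a2 had the largest rise of the family and because Col4a1 and Col4a2, which rose together, start back to back. Each window runs from 250 bases before to 50 bases after the start in RefSeq (GRCm38.p6), 5′ to 3′ on the strand of the gene. Col9a2 lies at chr4:121039316-121039615 on the plus strand, Col4a1 at chr8:11312777-11313076 on the minus strand and Col4a2 at chr8:11312555-11312854 on the plus strand. Capitals mark the GC box GGGCGG, on either strand, in Col9a2, and in Col4a1 and Col4a2 they mark the 78 bases that both windows share.
Col9a2: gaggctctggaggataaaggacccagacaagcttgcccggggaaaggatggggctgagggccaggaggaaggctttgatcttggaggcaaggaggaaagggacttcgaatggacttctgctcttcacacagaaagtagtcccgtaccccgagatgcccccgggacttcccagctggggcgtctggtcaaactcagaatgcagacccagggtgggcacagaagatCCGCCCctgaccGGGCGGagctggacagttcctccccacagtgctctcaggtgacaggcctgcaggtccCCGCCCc
Col4a1: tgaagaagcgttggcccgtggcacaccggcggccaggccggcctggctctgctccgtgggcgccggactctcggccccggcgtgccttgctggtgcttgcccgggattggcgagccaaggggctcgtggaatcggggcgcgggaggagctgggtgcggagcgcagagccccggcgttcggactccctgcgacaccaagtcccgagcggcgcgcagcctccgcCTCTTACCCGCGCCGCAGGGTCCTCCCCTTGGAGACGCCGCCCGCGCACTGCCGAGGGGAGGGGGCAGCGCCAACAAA
Col4a2: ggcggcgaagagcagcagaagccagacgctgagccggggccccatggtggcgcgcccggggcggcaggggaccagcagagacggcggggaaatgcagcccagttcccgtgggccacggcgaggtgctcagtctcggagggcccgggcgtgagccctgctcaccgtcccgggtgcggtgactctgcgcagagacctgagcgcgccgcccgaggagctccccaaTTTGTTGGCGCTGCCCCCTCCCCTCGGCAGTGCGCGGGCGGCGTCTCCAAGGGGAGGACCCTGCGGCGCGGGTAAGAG
The starts of Col4a1 and Col4a2 are 21 bases apart on opposite strands, so the capitals of one window are the reverse complement of those of the other. Promoter entries were matched for 35 of the 44 members. The letters GCGTG, the core of the AhR binding element, were searched on both strands and occurred in 10 of 35 collagen windows (28.6%), against 32.5% of all 27025 windows. Col4a1 and Col4a2 each held 1 match and Col9a2 held none in its window. The GC box occurred in 22 of 35 collagen windows (62.9%) and in 35.9% of all windows, on both strands. The letters CCAAT, on both strands, occurred in 34.3% of collagen windows and 37.9% of all, and TATAAA, on the sense strand, in 14.3% and 8.88%. None of these motifs contains another, and a match describes letters only.

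The first question was from which dose collagen genes differed from vehicle. A gene was called when its fold change was at least 1.5 and its adjusted p was under 0.05 (quasi-likelihood test of edgeR, Benjamini-Hochberg adjustment over the 15373 genes tested). No member was called at 0.03, 0.1, 0.3 or 1 μg/kg, where 0.0195%, 0.0976%, 0.468% and 2.78% of all genes were called. At these doses 0, 0, 4 and 6 members had an unadjusted p under 0.05, beside 2.56%, 4.33%, 7.33% and 15.1% of all genes. DESeq2 called 1 member (Col9a2) at 1 μg/kg and none at the other 3 doses, and limma on the deposited log2 values called none at the 4 doses. At 3 μg/kg, 7 of 31 tested members were called, all higher, against 6.75% of all genes (4.53% higher). They were Col9a2, the type IV chains Col4a1, Col4a2, Col4a3 and Col4a4, the fibril-associated Col14a1 and the fibrillar Col1a1. DESeq2 called 8 members at this dose, the same 7 and Col27a1, which had a lower mean than vehicle. The limma test called 4 (Col9a2, Col1a1, Col4a3 and Col4a4). In edgeR, leaving out 1 library at a time kept the calls of Col9a2 and Col4a3 in all 40 fits. The count fell to 2 without vehicle replicate 3 or 3 μg/kg replicate 5, and to 4 without vehicle replicate 1 or vehicle replicate 5. It rose to 9 without vehicle replicate 2, where the fibrillar Col1a2 and Col3a1 were called as well. How many genes were called at 3 μg/kg, and which, therefore depended on single mice. Col4a3 kept a call in the basement membrane class throughout, and Col9a2 kept one among the other types. The fibrillar Col1a1 was called in 34 of the 40 fits.

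At 10 μg/kg, 21 of 31 members were called, 17 higher and 4 lower, against 21.8% of all genes (13.6% higher and 8.13% lower). At 30 μg/kg, 22 were called, 18 higher and 4 lower, against 42.1% of all genes (23.2% higher and 18.9% lower). The ranges of the treated and the vehicle mice did not overlap for 21 of the 31 members at 30 μg/kg and for 17 of 31 at 10 μg/kg, against 37.6% and 23% of all genes. Calls at both doses covered 20 members, with Col15a1 called only at 10 μg/kg and Col12a1 and Col8a1 only at 30 μg/kg by this rule. The median log2 fold change of the tested members at 30 μg/kg was 1.15, beside 0.03 over all genes tested. It was 1.78 for fibrillar, 2.33 for basement membrane and 1.07 for other members. Scaled to total counts alone, the median of all genes moved to 0.52, all gene calls split into 6402 higher and 1559 lower in place of 3567 and 2909, and the collagen calls were 21 higher and 4 lower.

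**Figure D1:**
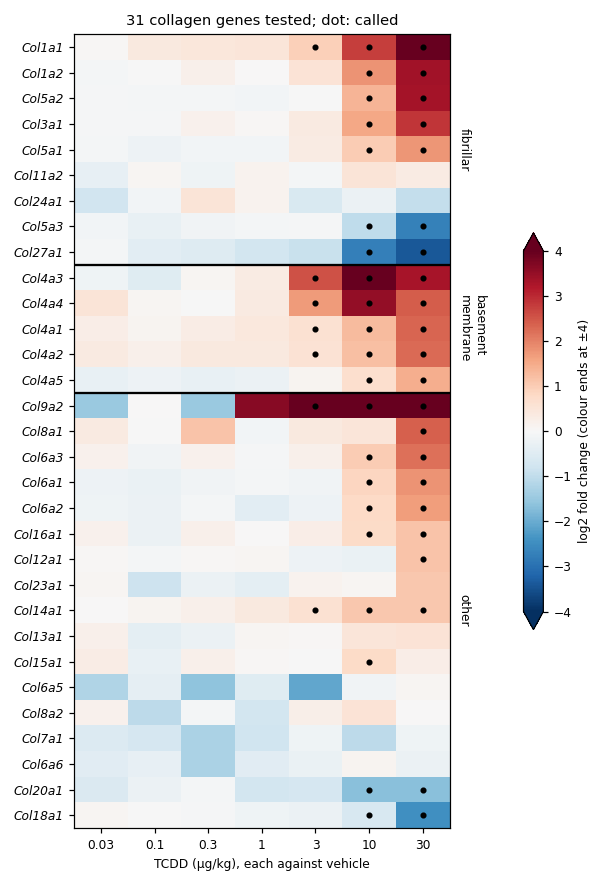
Log2 fold change from vehicle (colour, ending at ±4) of the 31 tested collagen genes (rows, by class and by size at 30 μg/kg) at each TCDD dose (columns, μg/kg), with a dot where the gene was called. No dot lies below 3 μg/kg, 7 lie at 3, 21 at 10 and 22 at 30 μg/kg.

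The numbers in the titles of the libraries were split into 2 runs of numbers, up to 27 and from 28, which served as possible batches. The labels do not say what these numbers stand for. Run 1 alone (3 vehicle mice and 2 at 30 μg/kg) gave 17 collagen genes higher and 4 lower at 30 μg/kg, and run 2 alone (2 vehicle mice and 3 at 30 μg/kg) gave 17 and 4 as well, while 30.3% and 37.2% of all genes were called. At 10 μg/kg run 1 alone gave 10 higher and 2 lower and run 2 alone gave 14 higher and 2 lower, beside 12.1% and 15.2% of all genes. Without 30 μg/kg replicate 1, and likewise without vehicle replicate 2, 23 members were called at 30 μg/kg.

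Of the 9 fibrillar genes tested, 5 were called higher at 30 μg/kg, 2 were called lower and 2 were not called. The genes of types I and III, the main collagens of scar tissue, and the α1 and α2 chain genes of type V were the 5 that rose. Col1a1, the major chain of type I collagen, was at 8.30, 22.7, 9.06, 7.76 and 6.51 CPM in vehicle replicates 1 to 5 and at 114, 313, 236, 261 and 344 CPM in replicates 1 to 5 at 30 μg/kg. Values below are given in the same order. The groups did not overlap, and vehicle replicate 2 was the highest control while replicate 1 was the lowest treated mouse. The log2 fold change was 4.54 (SE 0.33), a 23.3-fold rise (edgeR adjusted p 3.66e-14), and it was 4.73 without 30 μg/kg replicate 1.

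Col1a2, which encodes the partner chain of type I collagen, was at 14.2, 31.3, 13.6, 15.0 and 17.3 CPM in vehicle and at 92.9, 237, 174, 194 and 234 CPM at 30 μg/kg. The log2 fold change was 3.35 (SE 0.24, edgeR adjusted p 1.67e-14). Col3a1, the chain of type III collagen, was at 36.0, 66.0, 25.9, 30.6 and 26.8 CPM in vehicle and at 159, 328, 250.5, 292 and 311 CPM at 30 μg/kg. For both genes vehicle replicate 2 was again the highest control and replicate 1 the lowest treated mouse, with no overlap between the groups. Col3a1 rose 7.23-fold (log2 2.85, SE 0.23, edgeR adjusted p 6.14e-13).

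Type V collagen nucleates and limits the width of type I fibrils, and its chain genes moved in different directions. Col5a2 was at 4.67, 4.72, 2.13, 4.05 and 1.79 CPM in vehicle, at 7.91, 8.89, 11.7, 8.71 and 7.72 CPM at 10 μg/kg and at 15.1, 51.0, 38.2, 34.8 and 36.6 CPM at 30 μg/kg. It rose 10.0-fold at 30 μg/kg (log2 3.33, SE 0.32, edgeR adjusted p 2.14e-11), and the 3 groups did not overlap. Col5a1 was at 12.7, 14.5, 11.9, 10.9 and 13.7 CPM in vehicle and at 32.5, 55.6, 39.4, 40.4 and 51.0 CPM at 30 μg/kg, a 3.43-fold rise. Col5a3 instead was at 68.2, 63.5, 76.2, 91.6 and 68.6 CPM in vehicle and at 27.4, 4.90, 5.52, 8.44 and 10.1 CPM at 30 μg/kg. All 5 treated mice lay below every vehicle mouse, and replicate 1 had the smallest fall. Col5a3 was repressed 6.55-fold (log2 -2.71, SE 0.28, edgeR adjusted p 1.70e-10), and the log2 value was -3.34 without replicate 1.

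Col27a1, a fibrillar gene known from cartilage development, was the second repressed member of its class. It was at 80.2, 39.8, 54.5, 59.6 and 39.2 CPM in vehicle, at 12.0, 10.0, 6.56, 4.18 and 7.77 CPM at 10 μg/kg and at 4.58, 10.3, 4.61, 4.24 and 2.44 CPM at 30 μg/kg. Both dose groups lay below all vehicle mice and overlapped each other. The repression was 10.4-fold at 30 μg/kg (log2 -3.38, SE 0.36, edgeR adjusted p 2.52e-10) and 6.71-fold at 10 μg/kg. Col11a2 (1.26 CPM in vehicle and 1.61 at 30 μg/kg) and Col24a1 (0.358 and 0.180 CPM) were not called, with log2 fold changes of 0.34 and -0.94 and SE of 0.42 and 0.77.

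**Figure D2:**
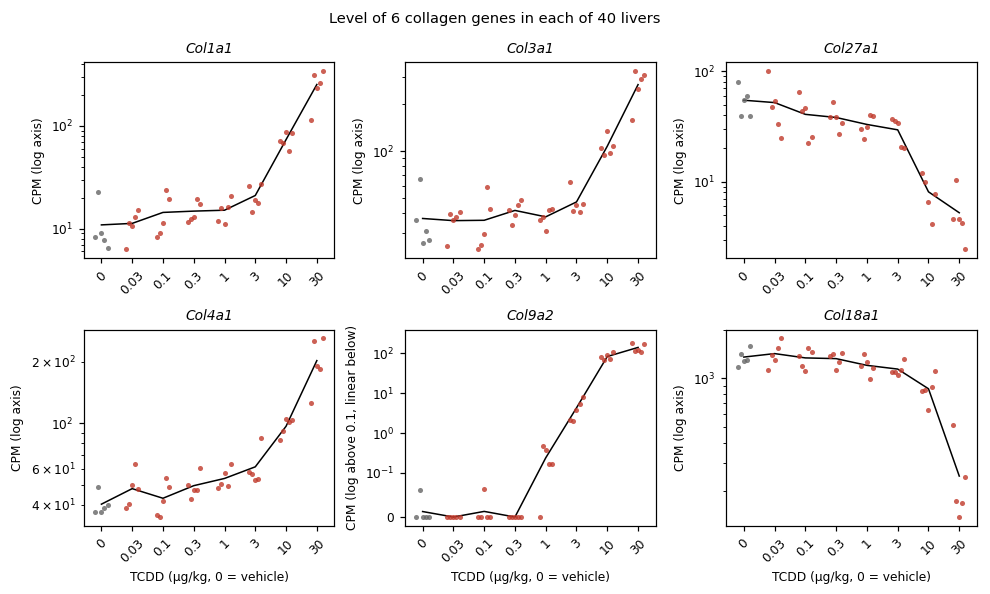
Level of Col1a1, Col3a1, Col27a1, Col4a1, Col9a2 and Col18a1 (vertical axes, TMM-scaled CPM on log axes, linear below 0.1 CPM for Col9a2) in each liver, as points against TCDD dose (μg/kg, 0 is vehicle), with a line through the means of 5 mice. Col1a1 and Col3a1 were not called up to 1 μg/kg, and their means reached 253 and 268 CPM at 30 μg/kg, while Col18a1 fell to 249 CPM.

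Every type IV gene tested, the basement membrane class here, was called higher at 30 μg/kg, 5 of 5. Of these 5, 4 were among the 7 members called at 3 μg/kg. The rise did not extend to the 2 basement membrane zone genes outside this class. At 30 μg/kg Col18a1 was called lower (log2 -2.44) and Col15a1 was not called (0.27). Col4a1 and Col4a2 encode the chains of the common type IV network. Col4a1 was at 36.9, 49.1, 37.1, 38.5 and 40.0 CPM in vehicle, at 58.2, 56.8, 53.0, 53.5 and 85.2 CPM at 3 μg/kg and at 126, 252, 191, 185 and 260.1 CPM at 30 μg/kg. Each of the 3 groups lay apart from the others, with replicate 5 the highest at both doses. The rise was 1.52-fold at 3 μg/kg, just above the threshold (edgeR adjusted p 0.00949), and 5.03-fold at 30 μg/kg (log2 2.33, SE 0.17, adjusted p 1.26e-14).

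Col4a2 was at 26.7, 37.3, 24.6, 25.1 and 26.1 CPM in vehicle and at 73.6, 170.1, 136, 126 and 169 CPM at 30 μg/kg. Its log2 fold change of 2.27 (SE 0.18) was within 1 SE of that of Col4a1. Per kilobase of exon, the ratio of Col4a1 to Col4a2 within a liver was 1.29 ± 0.0896 over the vehicle mice and 1.35 ± 0.103 over those at 30 μg/kg (SD, n = 5 each), while both genes rose. Its ranges, 1.17 to 1.36 and 1.24 to 1.52, overlapped.

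Col4a3 and Col4a4, whose chains build the specialised type IV network of the kidney filter and are also neighbours that start head to head, followed a different course. Col4a3 was at 0.895, 0.745, 0.129, 0.350 and 0.215 CPM in vehicle, at 8.34, 11.8, 15.2, 12.6 and 2.55 CPM at 10 μg/kg and at 11.3, 2.53, 3.65, 3.69 and 2.78 CPM at 30 μg/kg. Col4a4 was at 0.547, 0.497, 0.0647, 0.979 and 0.286 CPM in vehicle, at 3.12, 9.17, 6.25, 6.29 and 2.50 CPM at 10 μg/kg and at 5.87, 1.91, 1.71, 2.06 and 1.35 CPM at 30 μg/kg. Both were higher than vehicle at both doses, and at 30 μg/kg replicate 1 was the highest mouse for each, in the range of the 10 μg/kg group. Col4a3 rose 20.6-fold at 10 μg/kg and 9.75-fold at 30 μg/kg, and Col4a4 rose 11.4-fold and 5.36-fold. Without 30 μg/kg replicate 1 the rise at 30 μg/kg was 6.45-fold for Col4a3 (log2 2.69, against 3.29 with it), and the log2 value was 1.87 for Col4a4, against 2.42. The call of Col4a4 at 30 μg/kg was lost in run 2 alone.

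Between 30 and 10 μg/kg, Col4a4 was lower at 30 μg/kg (log2 -1.09, SE 0.43, edgeR adjusted p 0.0481) and Col4a3 had a log2 difference of -1.08 (SE 0.46) that was not called (edgeR adjusted p 0.0688). Without 30 μg/kg replicate 1 both were called lower, at -1.67 for Col4a3 and -1.63 for Col4a4 (edgeR adjusted p 0.00399 and 0.00259). The adjusted p of Col4a4 lay close to the threshold, and its call was lost in 20 of the 40 fits that left out 1 library, where the log2 difference was smallest without 10 μg/kg replicate 2 (-0.82). Reads of both genes are few, and those of Col4a3 that overlap a gene on the opposite strand went uncounted in the unstranded column, which held fewer reads than both strand settings together by a factor of 1.25. With a strand-specific column the log2 fold change of Col4a3 at 30 μg/kg was 3.24, against 3.29.

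Col4a5, the third chain of the kidney network, was at 2.29, 4.04, 2.33, 2.73 and 2.51 CPM in vehicle and at 5.59, 11.0, 8.18, 7.37 and 5.52 CPM at 30 μg/kg. It rose 2.71-fold (log2 1.44, SE 0.26, edgeR adjusted p 1.03e-05). Its 1.61-fold rise at 10 μg/kg was also called (edgeR adjusted p 0.0396). That call was lost in 12 of 23 other settings, among them the fits without vehicle replicate 1, 3, 4 or 5 and without 10 μg/kg replicate 2, 3 or 4. Col4a6, the sixth type IV gene, had 0 to 4 counts in vehicle libraries and 3 to 14 at 30 μg/kg and was not tested.

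**Figure D3:**
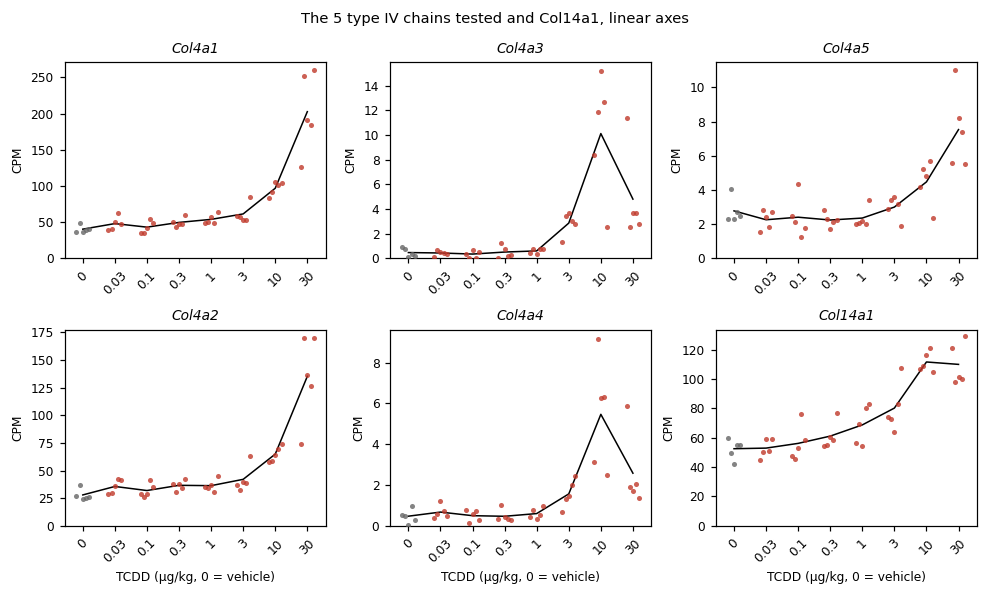
Level (TMM-scaled CPM, linear axes from 0) of the 5 tested type IV genes and Col14a1 in each liver against TCDD dose (μg/kg, 0 is vehicle), with a line through the means of 5 mice. Col4a1, Col4a2 and Col4a5 had their highest mean at 30 μg/kg, Col4a3 and Col4a4 at 10 μg/kg (10.1 and 5.46 CPM), and Col14a1 was level between 10 and 30 μg/kg.

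Among the 17 other members tested, 8 were called higher at 30 μg/kg, 2 were called lower and 7 were not called. All 5 tested genes of the FACIT group, which bind to the surface of fibrils, were called (4 higher and 1 lower). The beaded filament genes of type VI gave 3 calls of 5, the short-network genes of type VIII 1 of 2 and the multiplexins 1 of 2. Neither of the 2 transmembrane genes tested was called.

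Col9a2 encodes a chain of type IX collagen, which in cartilage is built from the products of Col9a1, Col9a2 and Col9a3. It was at 0, 0.0621, 0, 0 and 0 CPM in vehicle, which is 1 read in 5 libraries, so that without vehicle replicate 2 the group was at 0. At 1 μg/kg it was at 0, 0.478, 0.378, 0.165 and 0.169 CPM and at 3 μg/kg at 2.12, 1.97, 3.70, 5.41 and 8.26 CPM. At 10 μg/kg the values were 80.9, 67.4, 90.8, 73.9 and 106 CPM and at 30 μg/kg 187, 114, 125, 110.3 and 174 CPM. From 3 μg/kg on every treated mouse was above every vehicle mouse, and the 30 μg/kg group lay above the 10 μg/kg group without overlap.

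Because vehicle held a single read, the rise of Col9a2 is given as a ratio of reads per library size with an exact 95% interval that covers counting error only. The ratio to vehicle was 18.7 (2.99 to 776) at 1 μg/kg, 340.0 (60.6 to 13467) at 3 μg/kg, 6656 (1194 to 262933) at 10 μg/kg and 11214 (2012 to 442961) at 30 μg/kg. At 1 μg/kg the gene was not called (edgeR adjusted p 0.108). At 30 μg/kg its edgeR adjusted p was 3.71e-18, and the step from 10 to 30 μg/kg was 1.69-fold (edgeR adjusted p 0.0153), a call lost without 30 μg/kg replicate 5 (1.58-fold). The partner genes stayed near 0, with 0 to 2 reads per library of Col9a1 and 1 to 11 reads of Col9a3 at 30 μg/kg, against 0 reads and 3 to 15 reads in vehicle.

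Of 6 cartilage markers examined beside Col9a2, Acan, Comp, Matn1, Matn3 and Hapln1 had too few counts to test, and Acan and Matn3 had 0 counts in all vehicle and all 30 μg/kg libraries. The remaining one, Cnmd, was repressed (log2 -1.41, SE 0.36, edgeR adjusted p 0.00118). Their summed level was 2.24 to 3.84 CPM in vehicle and 0.555 to 1.83 CPM at 30 μg/kg.

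Col18a1, the gene of collagen XVIII and of its endostatin fragment, was the most abundant collagen gene of vehicle liver and the most abundant one to fall. It was at 1182, 1423, 1279, 1293 and 1597 CPM in vehicle, at 838, 844, 641, 880.1 and 1109 CPM at 10 μg/kg and at 516, 175, 139, 169 and 244 CPM at 30 μg/kg. The 3 groups did not overlap, and replicate 1 at 30 μg/kg lay nearest to the 10 μg/kg group. Repression was 5.44-fold at 30 μg/kg (log2 -2.44, SE 0.21, edgeR adjusted p 2.98e-12) and the log2 value was -2.90 without that mouse. At 10 μg/kg the repression was 1.57-fold, and this call was lost in run 1 alone, in run 2 alone, with total counts as library sizes and without 10 μg/kg replicate 3.

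The type VI genes, whose products form beaded filaments around cells, rose together. Col6a1 was at 8.60, 15.7, 8.09, 7.83 and 7.44 CPM in vehicle and at 21.6, 35.7, 35.7, 33.8 and 37.9 CPM at 30 μg/kg. Col6a3 was at 8.90, 12.4, 8.28, 8.18 and 6.59 CPM in vehicle and at 31.8, 36.4, 35.5, 53.0 and 48.5 CPM at 30 μg/kg. Neither gene overlapped between the groups, and vehicle replicate 2 was the highest control for both. Their rises were 3.46-fold and 4.62-fold, and Col6a2 rose 3.19-fold, its mean going from 7.03 CPM (SD 4.08, n = 5) to 22.4 CPM (SD 4.13, n = 5). The related Col6a5 and Col6a6 stayed below 1 CPM on average and were not called.

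Col8a1, a short-network chain found around vessels, was at 0.646, 0.435, 0.194, 0.210 and 0.286 CPM in vehicle and at 0.832, 3.36, 2.13, 1.47 and 1.85 CPM at 30 μg/kg. It rose 5.25-fold, from few reads. Col20a1, a FACIT gene, was at 4.13, 2.36, 2.91, 2.38 and 2.79 CPM in vehicle and at 0.555, 1.25, 1.41, 0.515 and 0.800 CPM at 30 μg/kg, a 3.20-fold repression. Neither gene overlapped between these groups.

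The FACIT genes Col14a1 and Col12a1 and the fibril-associated Col16a1 made up the remaining rises. Col14a1 rose from 52.5 ± 6.70 to 109.9 ± 14.4 CPM (SD, n = 5 each; 2.09-fold), Col16a1 from 3.59 ± 1.53 to 7.99 ± 1.35 CPM (2.23-fold) and Col12a1 from 3.10 ± 1.10 to 6.88 ± 3.75 CPM (2.22-fold). For Col12a1 replicate 1 at 30 μg/kg lay within the vehicle range and its call was lost in run 1 alone. Col13a1 had a log2 fold change of 0.56 that missed the fold threshold (edgeR adjusted p 0.0461), and Col15a1, called 1.69-fold higher at 10 μg/kg but not without vehicle replicate 1 or 10 μg/kg replicate 4 (1.62-fold and 1.51-fold), had 0.27 at 30 μg/kg. Col23a1 (1.08), Col8a2 (0.02), Col7a1 (-0.17), Col6a5 (0.09) and Col6a6 (-0.23) were not called, with SE of their log2 fold changes between 0.46 and 0.90.

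A further question was whether the family still changed between the top doses. From 10 to 30 μg/kg, 17 members were called, 14 higher and 3 lower, against 21.1% of all genes (10.6% in each direction). Fibrillar rises were largest for Col5a2 (3.92-fold), Col1a1 (3.44-fold), Col1a2 (2.92-fold) and Col3a1 (2.49-fold). Falls were called for Col18a1 (3.47-fold), Col5a3 (3.22-fold) and Col4a4 (2.12-fold). Without 30 μg/kg replicate 1 the fall of Col5a3 was 4.99-fold. Col14a1 and Col20a1 differed by -0.02 and 0.00 on the log2 scale (SE 0.14 and 0.33). Without 30 μg/kg replicate 1 the count was 19, and in run 1 alone, where that mouse is 1 of 2 at this dose, it was 5, against 16 in run 2 alone. Over the ordered dose steps, 23 members had a slope with an adjusted p under 0.05, 19 upward and 4 downward, against 57.7% of all genes (31.5% upward and 26.1% downward).

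The chains of one collagen type did not all keep their proportions. The ratios compared here are of CPM per kilobase of exon within each liver, where exon lengths cover all annotated isoforms, so that changes between doses are better defined than absolute ratios. Col1a1 to Col1a2 averaged 1.09 ± 0.256 in the vehicle mice and 2.54 ± 0.166 in those at 30 μg/kg (SD, n = 5 each), with ranges of 0.715 to 1.37 and 2.31 to 2.78 that did not overlap. At 1 μg/kg, where Col1a1 was not called, this ratio averaged 1.54 (1.41 to 1.68), above every vehicle mouse. At 3 μg/kg its range of 1.26 to 1.67 overlapped vehicle. Col1a1 to Col3a1 moved from 0.425 ± 0.0866 to 1.38 ± 0.210. Col5a1 to Col5a2 moved the other way, from 4.90 ± 2.48 to 1.54 ± 0.522, and Col6a1 to Col6a2 was 2.79 ± 0.650 and 2.79 ± 0.167. These ratios are descriptions and were not tested.

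**Figure D4:**
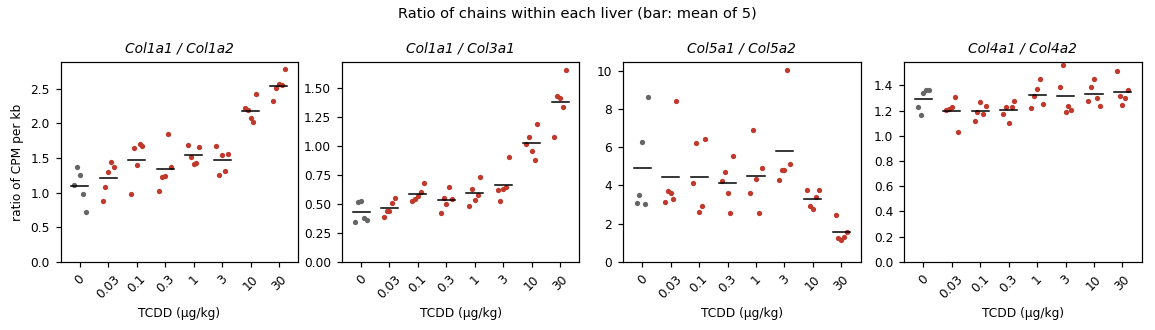
Ratio of CPM per kilobase of exon between 2 collagen chains in each liver (points, 5 per dose, bar at the mean) against TCDD dose (μg/kg, 0 is vehicle). Col1a1 to Col1a2 lay at 2.31 to 2.78 in all 5 mice at 30 μg/kg, above every vehicle mouse, while Col4a1 to Col4a2 stayed between 1.03 and 1.56 in all 40 livers.

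Summed over the 44 genes, collagen expression averaged 1745 ± 158 CPM over the vehicle mice and 1794 ± 241 CPM over the mice at 30 μg/kg (SD, n = 5 each), with overlapping ranges of 1584 to 1938 and 1584 to 2127 CPM. The sum over all members except Col18a1 went from 390 ± 48.1 to 1546 ± 315 CPM, without overlap. Fibrillar genes summed to 212 ± 27.2 and 805 ± 227 CPM, basement membrane genes to 72.1 ± 11.2 and 353 ± 90.5 CPM, and other members to 1460 CPM in vehicle (1290.2 to 1694 over 5 mice) and 636 ± 184 CPM at 30 μg/kg (SD, n = 5).

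Per kilobase of exon, Col18a1 made up 79.4% of collagen expression in vehicle (77.1% to 83.6% over 5 mice), 50.7% at 10 μg/kg (41.3% to 55.4%) and 13.8% at 30 μg/kg (8.72% to 29.6%). Col1a1, Col1a2 and Col3a1 together went from 2.82% ± 1.18 to 31.3% ± 8.42 (SD, n = 5), and Col9a2 alone held 17.8% ± 4.10 at 30 μg/kg. Basement membrane genes, counted as type IV only and so without Col15a1 and Col18a1, held 4.18% ± 0.508 in vehicle and 19.1% ± 4.01 at 30 μg/kg. In the order of mean level per kilobase, vehicle liver began with Col18a1, Col5a3 and Col14a1 (193, 10.8 and 7.49 CPM per kilobase). At 30 μg/kg it began with Col9a2, Col1a1 and Col18a1 (45.8, 38.6 and 35.4), whose ranges over mice overlapped one another. This order and the shares depend on exon lengths over all annotated isoforms, which were 3095 bases for Col9a2, 6563 for Col1a1 and 7021 for Col18a1. In CPM, without this scaling, Col9a2 had a lower mean at 30 μg/kg than Col1a1, Col3a1 and Col18a1.

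**Figure D5:**
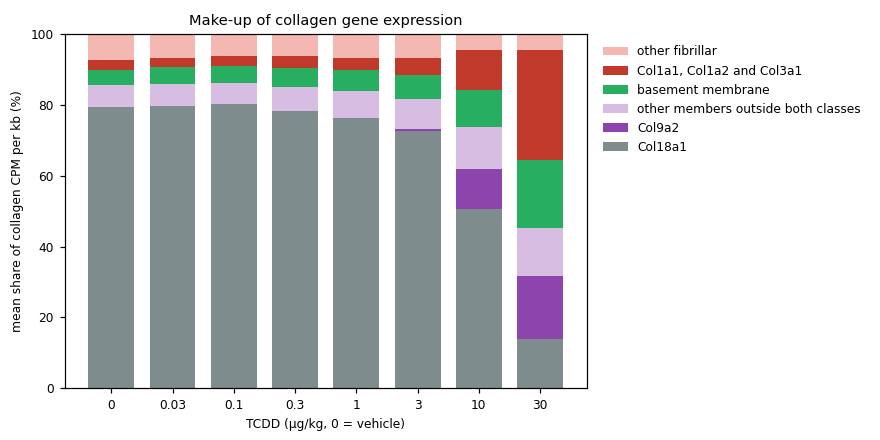
Mean share of collagen expression (per cent of CPM per kilobase of exon summed over the 44 genes, 5 mice per bar) held by Col18a1, Col9a2, the type I and III genes and the remaining members of each class, against TCDD dose (μg/kg, 0 is vehicle). Col18a1 went from 79.4% in vehicle to 13.8% at 30 μg/kg, where the type I and III genes held 31.3%.

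Enzymes and chaperones that modify, fold and trim procollagen were examined as the working partners of the family. Of 25 such genes 22 were tested, and at 30 μg/kg 12 were called higher and 4 lower, with a median log2 fold change of 0.80. Over all genes 23.2% were called higher and 18.9% lower at this dose, so the lower calls were near the background share. Adamts14, which removes the amino-terminal propeptide, was at 1.74 ± 0.439 CPM in vehicle and 14.5 ± 8.89 CPM at 30 μg/kg (log2 3.06). Serpinh1, the collagen chaperone HSP47, went from 14.5 to 21.3 CPM in vehicle to 41.8 to 75.3 CPM, without overlap (log2 1.68). The foldase gene Fkbp10 (2.55), the lysyl hydroxylase gene Plod2 (1.98) and the prolyl 3-hydroxylation cofactor gene Crtap (1.66) were also called higher in log2 fold change. Bmp1, whose product removes the carboxy-terminal propeptide of fibrillar collagens, was repressed from a mean of 182 CPM (SD 17.4, n = 5) to 32.1 CPM (SD 17.0, n = 5; log2 -2.51, SE 0.18, edgeR adjusted p 2.36e-14).

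Collagen receptor genes gave 6 higher calls of 8 tested at 30 μg/kg (23.2% of all genes), with a median log2 fold change of 1.90. The 6 were the integrin genes Itga2 (3.42), Itga11 (2.17) and Itga1 (0.72), the discoidin receptor genes Ddr1 (2.39) and Ddr2 (1.63), and the endocytic receptor gene Mrc2 (2.51), with log2 fold changes in parentheses. Ddr2 was at 2.91 to 4.72 CPM in vehicle and 9.14 to 14.2 CPM at 30 μg/kg, without overlap. Itga2 and Itga11 were at or near 0 in some vehicle libraries, so the size of their rise is imprecise. That of Itga2 was 2.67 without 30 μg/kg replicate 2 and 4.03 without vehicle replicate 4.

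Markers of cell types that make or border on collagen moved with these results, and their part in them was not tested. Calls of these lists stand beside 23.2% of all genes higher and 18.9% lower. Of 10 stellate cell markers 7 were called higher at 30 μg/kg and none lower, and their summed level was 173 to 242 CPM in vehicle and 407 to 791 CPM at 30 μg/kg. Of 7 portal fibroblast markers 6 were higher and 1 (Clec3b) lower, with sums of 9.54 to 31.9 and 62.6 to 112 CPM. The Clec3b call rested on vehicle replicate 2, which held 72 counts against 2 to 4 in the other 4 vehicle libraries and 2 to 5 at 30 μg/kg, and without that mouse the gene was not called (log2 -0.36, edgeR adjusted p 0.806). The highest vehicle sum of this list was 31.9 CPM against a group median of 12.6 CPM. Endothelial markers gave 4 higher calls of 6 (135 to 181 and 242 to 328 CPM), bile duct markers 4 higher and 1 lower of 5 (37.4 to 48.4 and 67.9 to 333 CPM) and macrophage markers 6 of 6 higher (134 to 188 and 447 to 1008 CPM). Of 3 mesothelial markers 1 was higher (1.43 to 7.89 and 4.02 to 14.2 CPM). All 6 hepatocyte markers were lower, with sums of 28371 to 58555 CPM at 30 μg/kg. With 1 library left out, higher calls ranged from 6 to 8 for stellate, 5 to 6 for portal fibroblast, 2 to 4 for endothelial, 3 to 4 for bile duct and 0 to 1 for mesothelial markers. The endothelial count fell to 2 without vehicle replicate 3 or 30 μg/kg replicate 5, and the mesothelial count to 0 without vehicle replicate 4 or 5 or 30 μg/kg replicate 2. The bile duct count fell to 3 without 30 μg/kg replicate 2. Krt19 was then not called (log2 0.77, edgeR adjusted p 0.163, against 2.15 with that mouse). Krt7 and Epcam stayed higher without it, at smaller log2 values of 1.36 and 1.89. In every vehicle and 30 μg/kg library Spp1 had the most reads of the bile duct list. It had 318 to 477 reads in vehicle and 1103 to 5703 at 30 μg/kg, the most in replicate 2. No defining marker of these lists other than those of cartilage was at 0 in every vehicle library.

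The mice at 30 μg/kg also differed among themselves. Replicate 1 had the lowest level of 13 of the 18 members that rose, and was the highest mouse for Col4a3, Col4a4, Col9a2, Col5a3 and Col18a1. Replicate 2 had the highest level of 9 of the 18. In vehicle, replicate 2 had the highest level of 13 of the 18 and replicate 3 the lowest of 9. Without vehicle replicate 2 the calls at 30 μg/kg in the fibrillar and basement membrane classes numbered 7 and 5, the same as with it.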

How the data were processed

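Hepatic RNA-Seq libraries (150 bp paired-end, total RNA) came from 40 male mice. Per the submitters' processing notes, FastQC 0.11.7, Trimmomatic 0.39 and STAR 2.7.3a were used, and GRCm39 and mm10 are both named. The authors deposited raw counts per gene as written by STAR and a log2 table of normalized values for 23120 genes, which matched the blind variance-stabilizing transformation of DESeq2 within 5.03e-10. The annotation is not given in the sources used here, so gene coordinates are printed only for RefSeq windows. Of 55359 identifiers, 52083 were named through GENCODE M21, which also gave exon lengths. Reads on the first strand setting were 50.0% to 50.3% of those on both, so unstranded counts were used, and reads shared by overlapping genes went uncounted. Rows for reads outside single genes were left out. They held 19.2% to 28.7% of reads.

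Counts were fitted in R 4.3.3 with edgeR 4.0.16 (filterByExpr, minimum count 10 and minimum total count 15, TMM scaling, quasi-likelihood test, 1 mean per dose over all libraries, no covariates). SD describes the mice of a group, SE the fit. Each mouse is 1 sample, and replicate numbers follow accession order. The study's empirical Bayes posterior probability was replaced by edgeR's adjusted p at the same 1.5-fold threshold. The fit was tested on simulated data. No library copied another of its group (lowest chi-square per degree of freedom 10.2 over 80 pairs). The members, classes and lists were chosen with earlier results of these data known. Values per library were given for Col1a1, Col3a1, Col4a1, Col9a2 and up to 5 further called members per class by size of change at 30 μg/kg, and at most 6 called genes of each partner list were named. Alternatives were DESeq2 1.42.0, limma 3.58.1 on the deposited log2 values, other scaling and filters, the numbering run as covariate or alone, the strand-specific column, no fold threshold, the 2 groups alone, linear dose and each library left out. The exact intervals pool the reads of all mice of a group, so they cover counting error only and leave out the spread between mice. Depth was counted in reads, which carry no molecular identifiers.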

Additional observations from a re-analysis of the deposited data

Results flagged for a closer look

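In groups of 5 mice, a mouse was singled out when its gap to the next one exceeded 0.710 of the range of its group. The vehicle, 10 and 30 μg/kg values of the 22 members called at 30 μg/kg were examined (65 groups of values, Col9a2 in vehicle left out), and 15 were singled out. Chance gives about 1 in 20 for normally distributed values. The rule was applied to CPM without a log scale, whose distribution was not tested, and most of the 15 were high values. The genes also share mice, so these are not 15 separate events.

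Vehicle replicate 2 was the high value in 8 of the 15. It had 22.7 CPM of Col1a1 (other mice 6.51 to 9.06), 31.3 CPM of Col1a2 (13.6 to 17.3) and 66.0 CPM of Col3a1 (25.9 to 36.0). It had 49.1 CPM of Col4a1 (36.9 to 40.0), 37.3 CPM of Col4a2 (24.6 to 26.7) and 4.04 CPM of Col4a5 (2.29 to 2.73). It also had 15.7 CPM of Col6a1 (7.44 to 8.60) and 14.2 CPM of Col6a2 (4.01 to 5.80).

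Replicate 1 at 30 μg/kg was singled out 5 times. It was high for Col18a1 (516 CPM, others 139 to 244), Col4a3 (11.3 CPM, others 2.53 to 3.69), Col4a4 (5.87 CPM, others 1.35 to 2.06) and Col5a3 (27.4 CPM, others 4.90 to 10.1). It was low for Col6a1 (21.6 CPM, others 33.8 to 37.9). Replicate 2 at 30 μg/kg was high for Col27a1 (10.3 CPM, others 2.44 to 4.61) and replicate 3 at 10 μg/kg for Col20a1 (1.30 CPM, others 0.765 to 0.889).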

How the results depend on the processing

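No paired analysis was possible because replicate numbers follow accession order and pair no mice. All members called at 10 or 30 μg/kg kept their direction in every setting that tested them. In those settings 20 of 22 calls at 30 μg/kg and 11 of 21 at 10 μg/kg were never lost. A setting whose filter removed a gene was not counted as a loss of its call. Run 1 alone called 12 members at 10 μg/kg, 1 at any dose from 0.03 to 3 μg/kg and 5 between 30 and 10 μg/kg. Calls at 0.03 to 3 μg/kg numbered 3 with the strand-specific column, 4 with limma on the deposited log2 values and 2 to 9 with 1 library left out. With a mean count of at least 50, 3 basement membrane genes and 10 processing genes were called at 30 μg/kg, because fewer genes were tested. With 1 library left out, the calls ranged from 22 to 23 at 30 μg/kg, 18 to 21 at 10 μg/kg, 15 to 19 between both doses and 22 to 24 for the slope.

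Changes of sign at 30 μg/kg were seen only in members that were not called. Log2 fold changes were -0.11 for Col11a2 in run 1 alone, -0.0215 for Col15a1 in run 2 alone, 0.24 for Col6a6 and 0.33 for Col7a1 with total counts as library sizes, and for Col8a2 -0.0390 with run as a covariate, -0.29 with run and order and -0.68 in run 1 alone. With 1 library left out they ranged from -0.269 to 0.885 for Col6a5, from -0.242 to 0.331 for Col8a2, from -0.129 to 0.456 for Col15a1, from -0.485 to 0.0911 for Col6a6 and from -0.491 to 0.0341 for Col7a1. The causes were not tested. Low depth limits the 13 untested genes and those under 1 CPM.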
